A study of Mus musculus with 6 samples.

Results

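The tenascins are a family of large glycoproteins of the extracellular matrix, built from EGF-like repeats, fibronectin type III repeats and a fibrinogen-like globe at the C terminus. They bind collagens, proteoglycans, fibronectin and cell surface receptors, and they modify how cells attach to the matrix. The mouse has Tnxb (tenascin-X, found around collagen fibrils in skin, tendon, muscle and heart), its pseudogene Tnxa, Tnc (tenascin-C, a matrix protein of embryonic tissues and of injured tissue), Tnr (tenascin-R, of the nervous system) and Tnn (tenascin-W, best known from bone and its precursors).

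The counts of these 5 genes, out of 46983 genes listed, were taken by gene name from RNA sequencing of whole mouse hearts at the mid-gestation stage E13.5. One heart was sequenced per library. The 3 mutant hearts (replicates 1, 5 and 10) are labelled TnnT2Cre;Wt1flox, and the study's methods give them as carrying Tnnt2 Cre and both Wt1 alleles floxed. The 3 control hearts (replicates 2, 3 and 5) are labelled wild type, while the methods describe them as Cre-negative embryos that carry the same floxed alleles. All embryos had the strain label C57BL/6 x DBA/2. Cre under the Tnnt2 promoter acts in cardiomyocytes and, by the study's own account, in some epicardial cells, so the whole heart mixes cells with and without recombination. In RNA from whole hearts, fewer cells of a type and less RNA per cell cannot be told apart. Tnxb and its family were selected on the difference between mutant and control in these same hearts. That difference is therefore given as a description, with no test.

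Total counts per heart lay between 44244665 and 56373393. All 12 heart muscle markers were detected in every heart, with a summed level of 23622 to 28016 CPM (the count scaled to a common normalized library size) in controls and 26475 to 29234 CPM in mutants. Wt1 itself had 40.0, 32.9 and 19.96 CPM in controls 2, 3 and 5 and 17.7, 33.3 and 35.7 CPM in mutants 1, 5 and 10, a log2 fold change (mutant over control) of −0.10 ± 0.31 (SE). Tnnt2, whose promoter drives Cre, had a log2 fold change of 0.11 ± 0.12 (SE). The sign of Wt1 turned without control 2 (0.13) and without mutant 1 (0.16). Markers of other tissues set some libraries apart. All 8 skeletal muscle markers were detected in control 3, where Myog reached 20.3 CPM against 0.814 to 2.64 CPM in the other hearts and Pax7 reached 2.26 CPM against at most 0.0953 CPM. The airway epithelium list summed to 17.8 CPM in control 5 and 16.6 CPM in mutant 5, against 1.42 to 6.22 CPM in the other 4 hearts. Control 5 also stood apart in its trend with gene length, as described with Tnc.

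Tnxb (ENSMUSG00000033327, chromosome 17 from 34670535 to 34719815 on the plus strand of GRCm38) has 41 exons in its longest transcript of 12209 bases. Tnxa (ENSMUSG00000092200) is annotated as an unprocessed pseudogene and lies downstream on the same strand, from 34771395 to 34801623. Its 18 exons hold 2975 bases, and 97.2% of them could be aligned to the Tnxb transcript, within transcript bases 8470 to 12021 of Tnxb. Over the 2893 aligned bases 168 differed, an identity of 94.2%. The windows shown here lie in exon 3 of Tnxa, chr17:34777180-34777329, and in the matching exon 25 of Tnxb, chr17:34711596-34711745 (both on the plus strand of GRCm38, 5′ to 3′). They are the gap-free coding stretch of 150 bases inside an exon with the most differences, and so not a typical stretch. They are shown because the 17 differing bases, in capitals, are what separates a read of one gene from a read of the other.
Tnxa: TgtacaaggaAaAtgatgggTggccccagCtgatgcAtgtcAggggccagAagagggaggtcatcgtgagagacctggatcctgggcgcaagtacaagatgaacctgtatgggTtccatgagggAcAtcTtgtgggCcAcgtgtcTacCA
Tnxb: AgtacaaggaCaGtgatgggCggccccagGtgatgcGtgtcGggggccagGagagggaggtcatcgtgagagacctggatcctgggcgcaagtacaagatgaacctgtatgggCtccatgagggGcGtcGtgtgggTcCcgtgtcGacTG

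The divergence is not even along the pair. Of the 2826 windows of 150 bases (the read length) in the Tnxa transcript, 279 (9.87%) occur letter for letter in Tnxb, and the same 279 windows are 2.31% of the 12060 windows of Tnxb. A single read that falls wholly within such a window has no unique position, and by the study's methods only reads with a unique position were counted. All other Tnxb windows are absent from Tnxa, so the count of Tnxb rests mainly on sequence that the pseudogene transcript does not hold.

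The start of the Tnxb gene model is also shown, because it bears on which bases were counted. The 60 bases before it, chr17:34670475-34670534 on the plus strand of GRCm38.p6 from RefSeq, hold in capitals a run of 20 pyrimidines and the AG that follows it.
Tnxb, 60 bases before the gene model: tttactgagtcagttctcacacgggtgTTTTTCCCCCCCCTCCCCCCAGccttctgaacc

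The next 3 bases, from 34670535, are ATG. The annotated gene thus begins at an ATG with no 5′ untranslated sequence before it, and reads from any exon farther upstream would not be in its count. The letters GCGTGGG, a core recognized by WT1 and EGR zinc fingers, were searched on both strands of the 250 bases before each RefSeq start. They occurred in none of the windows of Tnxb, Tnc, Tnr and Tnn, and in 4.30% of all 32851 windows. This says only that these letters are not in these windows.

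Tnxb was lower in the mutant hearts. It had 923, 407 and 440 counts in controls 2, 3 and 5, and 70, 119 and 74 counts in mutants 1, 5 and 10. Scaled to library size, this was 16.4, 7.07 and 9.99 CPM in the controls and 1.35, 2.27 and 1.47 CPM in the mutants. Control 2 was the highest of all, mutant 5 was the highest of the mutants, and the groups did not overlap, with the closest hearts (control 3 and mutant 5) 3.12-fold apart. The mean was 11.1 ± 4.76 CPM (SD, n = 3) in controls and 1.70 ± 0.501 CPM (SD, n = 3) in mutants. The mutant mean was thus 15.2% of the control mean. The log2 fold change was −2.72 ± 0.35 (SE, edgeR), and it lay between −2.99 and −2.33 whichever single heart was left out. Among all 17473 genes tested, 0.206% had a log2 fold change of −2.5 or lower, and the median was 0.00 when rounded. Of the 3 tenascin genes that passed the filter on low counts, Tnxb alone had groups that did not overlap with mutants lower, as did 4.59% of all genes tested. Since the family was chosen on this contrast, nothing is read from that count.

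On the deposited FPKM scale (fragments per kilobase, scaled to the total of the heart), Tnxb stood at 1.54, 0.669 and 0.921 in the controls and at 0.127, 0.211 and 0.129 in the mutants. Ranked by mean FPKM among the genes tested, it moved from the 23.2 percentile in controls to the 5.27 percentile in mutants. The spread of Tnxb between hearts of the same group was also wide. Its pooled SD of log2 CPM was 0.515, and 88.8% of 500 genes of like level had a smaller one, with a median of 0.279. The controls differed by up to 2.32-fold among themselves and the mutants by up to 1.69-fold.

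**Figure D1:**
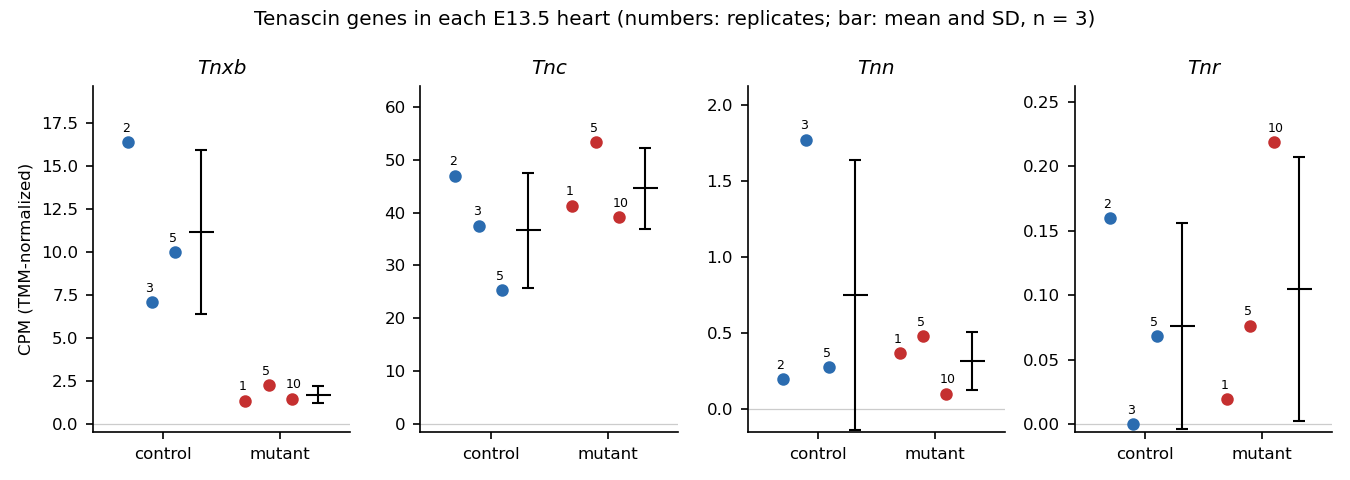
CPM of Tnxb, Tnc, Tnn and Tnr in each heart, with a linear axis of its own for each gene; points are hearts labelled by replicate, and the bars are the mean and SD of each group (n = 3). Tnxb separates the groups, with mutants at 1.35 to 2.27 CPM and controls at 7.07 to 16.4 CPM, while the groups overlap for the other 3 genes; Tnxa, at 0 counts in all 6 hearts, is not drawn.

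The pseudogene Tnxa had 0 counts in all 6 hearts. Each such 0 is compatible with a level of up to 3 counts in that library, a limit that covers counting error only. Read pairs that lie wholly within sequence shared by Tnxa and Tnxb would be counted for neither gene if only uniquely mapped reads were counted. Of the Tnxa exon bases, 3.43% also lie under exons of Cyp21a1 on the opposite strand.

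Tnc (ENSMUSG00000028364, chromosome 4 from 63959785 to 64047015 on the minus strand) was the most abundant tenascin of these hearts. It had 2647, 2156 and 1116 counts in controls 2, 3 and 5, and 2147, 2794 and 1969 counts in mutants 1, 5 and 10. The levels were 47.0, 37.5 and 25.3 CPM in the controls and 41.3, 53.3 and 39.1 CPM in the mutants. Mutant 5 was the highest and control 5 the lowest, and the groups overlapped. The means were 36.6 ± 10.8 CPM (SD, n = 3) in controls and 44.6 ± 7.63 CPM (SD, n = 3) in mutants, a log2 fold change of 0.28 ± 0.22 (SE). Without control 5 this difference was 0.08, and without control 2 it was 0.51. The FPKM percentile of Tnc was 45.2 in controls and 48.7 in mutants.

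The low value of Tnc in control 5 came in a library with a trend toward lower levels of long genes. Across 11784 genes, the deviation of log2 CPM from the gene's mean had a Spearman's rho with the gene length behind FPKM of −0.556 in control 5, against 0.382 and 0.317 in controls 2 and 3 and −0.00663, 0.464 and −0.0618 in mutants 1, 5 and 10. These values are across genes, which are not independent of each other, and are given without a p. Mutant 5, the heart with the highest Tnc, also had the highest rho. With this trend removed from each heart, the log2 fold change of Tnc was 0.24 ± 0.14 (SE) and that of Tnxb was −2.81. Within groups Tnc also spread more than its peers, with a pooled SD of log2 CPM of 0.360 against a median of 0.149 in 500 genes of like level, 94.2% of which were below it.

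Tnn (ENSMUSG00000026725, chromosome 1 from 160085029 to 160153580 on the minus strand) was near the lower end of detection. It had 11, 102 and 12 counts in controls 2, 3 and 5, and 19, 25 and 5 counts in mutants 1, 5 and 10. Control 3 stood alone at 1.77 CPM, while the other 5 hearts lay between 0.0993 and 0.477 CPM. The log2 fold change was −1.25 ± 0.89 (SE) with all hearts and 0.44 without control 3, so its sign rested on that library. Control 3 is the heart with the high skeletal muscle markers, and the part of those cells in the count of Tnn was not tested. Of those markers, Myh3 was at 27.4 CPM in control 3 against 1.26 to 2.73 CPM elsewhere.

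Tnr (ENSMUSG00000015829, chromosome 1 from 159523769 to 159931729 on the plus strand) did not pass the filter. It had 9, 0 and 3 counts in controls 2, 3 and 5, and 1, 4 and 11 counts in mutants 1, 5 and 10. Only 3 hearts, 1 control and 2 mutants, had more than 3 counts, and no difference was detectable at this depth. Nerve and glia markers, the cell types in which Tnr is best known, summed to 41.0 to 48.0 CPM in controls and 39.3 to 48.1 CPM in mutants.

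Levels of different genes are comparable only per length. Divided by the kilobases of annotated exon, the control means were 4.71 ± 1.40 CPM per exon kb for Tnc, 0.913 ± 0.390 for Tnxb, 0.128 ± 0.153 for Tnn and 0.00590 ± 0.00623 for Tnr (SD, n = 3 each). In the mutants they were 5.73 ± 0.981 for Tnc, 0.139 ± 0.0410 for Tnxb, 0.0539 ± 0.0333 for Tnn and 0.00813 ± 0.00798 for Tnr. The order Tnc, Tnxb, Tnn, Tnr held in each of the 6 hearts. Tnn and Tnr were not apart beyond their spread in the controls, and in mutant 10 they were at 0.0171 and 0.0170 CPM per exon kb.

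The deposited FPKM values gave another order for the lowest pair in some hearts. Tnr was above Tnn in control 2 (0.0434 against 0.0404 FPKM) and in mutant 10 (0.0555 against 0.0192 FPKM). The length behind the FPKM of Tnr is 3733 bases, which is the mean of its 5 annotated transcripts (541 to 12202 bases), whereas all its exons together cover 12867 bases. The same held across the table, where the length behind FPKM equalled the mean transcript length within 0.5 bases in 19061 of 26680 genes (71.4%), all 4 detected tenascins among them. The choice of length changes levels between genes but not the comparison of 1 gene between hearts.

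The composition of the family differed between the groups through Tnxb. Tnc exceeded Tnxb, per exon kb, by 4.51, 8.32 and 3.98 times in controls 2, 3 and 5, and by 48.2, 36.9 and 41.8 times in mutants 1, 5 and 10. This ratio is taken within a heart and does not depend on library size, and its groups did not overlap. Tnxb made up 25.7, 15.3 and 28.0% of all tenascin counts in the controls and 3.13, 4.04 and 3.59% in the mutants. Tnc made up 71.0 to 80.9% in the controls and 94.97 to 96.0% in the mutants. Because Tnxb chose the family, these shares restate its difference and are no separate evidence.

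**Figure D2:**
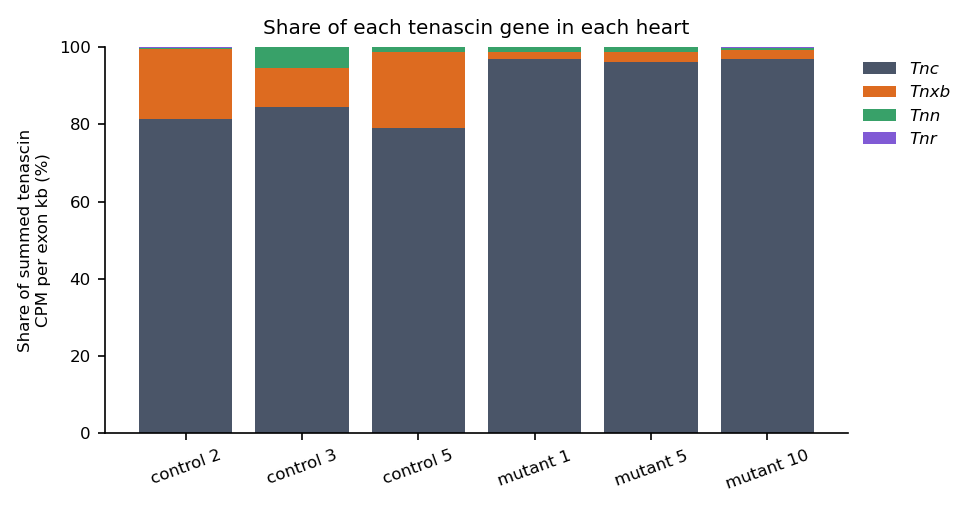
Share of each tenascin gene in the summed CPM per exon kb of the family, as stacked bars from 0 to 100% for each of the 6 hearts. Tnc fills most of each bar, the Tnxb segment is 10.2 to 19.8% in controls and 2.01 to 2.61% in mutants, and the Tnn segment is widest in control 3 at 5.34%.

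Genes that bind, regulate or cleave tenascins were then listed and read from the test over all genes. With edgeR's quasi-likelihood test, 0 of 17473 genes (0.0%) had a Benjamini-Hochberg adjusted p under 0.05, the smallest being 0.0991. At an unadjusted p under 0.05 there were 1002 genes, 549 higher (3.14%) and 453 lower (2.59%) in mutants. Whatever the p, 49.8% of all genes tested had a positive log2 fold change. Groups did not overlap, in either direction, in 1957 of the 17473 genes, and 802 of these (4.59% of all genes tested) had mutants lower. DESeq2 called 132 of 20013 genes (0.66%) at an adjusted p under 0.05. So 0 genes of any list below passed the adjusted threshold with edgeR, and the values that follow are given as levels and differences.

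Among the 20 tenascin receptors, all tested, 15 had a positive and 5 a negative log2 fold change, with a median of 0.16 against 0.00 for all genes. The list summed to 1552 to 1834 CPM in controls and 1799 to 2124 CPM in mutants. These sums overlapped between the groups, and control 5 had the lowest. At an unadjusted p under 0.05, 3 receptor genes were higher and 1 was lower, against 3.14% and 2.59% of all genes tested. Ptprz1, a receptor tyrosine phosphatase that binds tenascins C and R, was at 1.70, 1.32 and 1.23 CPM in controls 2, 3 and 5 and at 2.33, 4.77 and 5.44 CPM in mutants 1, 5 and 10. Its log2 fold change was 1.56 ± 0.34 (SE), with an adjusted p of 0.363 from edgeR and 0.00255 from DESeq2, and its groups did not overlap. Tlr4, an innate immune receptor that the fibrinogen-like globe of tenascin-C can activate, had a log2 fold change of 0.66 (adjusted p = 0.440 in edgeR). Itgb3, the integrin beta 3 subunit, had 0.54 (adjusted p = 0.843 in edgeR), and it was lowest in control 5, as Tnc was. Cntn1, a neural adhesion molecule that binds tenascin-R, had −1.003 with groups that overlapped (adjusted p = 0.797 in edgeR).

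The matrix partners hold the collagens, proteoglycans and glycoproteins among which tenascins are laid down. Of 26 genes 25 were tested, of which 21 had a positive and 4 a negative log2 fold change, with a median of 0.23. The list summed to 4112 to 7268 CPM in controls and 6544 to 8780 CPM in mutants. These sums overlapped between the groups, and the lowest was that of control 5, the library with lower levels of long genes. At an unadjusted p under 0.05, 4 matrix genes were higher and 0 were lower, against 3.14% and 2.59% of all genes tested. Col1a1, a chain of type I collagen, was at 643, 695 and 367 CPM in controls 2, 3 and 5 and at 746, 1272 and 1279 CPM in mutants 1, 5 and 10. Its groups did not overlap, and its log2 fold change was 0.95 ± 0.29 (SE, adjusted p = 0.652 in edgeR and 0.0517 in DESeq2). Col1a2, the other chain of type I collagen, had 0.76. Col14a1, a collagen of fibril surfaces, had 0.85 and Acan, the proteoglycan aggrecan, had 0.95, both with groups that overlapped.

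Levels of other cell type markers are given beside these genes. The 12 fibroblast markers, which share Col1a1 with the matrix list, summed to 2107 to 2784 CPM in controls and 2790 to 3639 CPM in mutants. The 8 macrophage markers summed to 84.0 to 99.7 CPM in controls and 128 to 142 CPM in mutants. Of these markers 6 were higher at an unadjusted p under 0.05, as were 3.14% of all genes tested. The 12 epicardium markers, with 5 higher at that threshold, summed to 283 to 571 CPM in controls and 377 to 697 CPM in mutants. The 12 tendon and valve markers summed to 132 to 193 CPM and 170 to 222 CPM, in that order. In fibroblast, epicardium and tendon lists every member was detected in at least 1 heart, and none of these sums set all mutants below all controls. A sum does not show how its single members moved. Of the 12 fibroblast markers, 6 had a positive and 6 a negative log2 fold change, from −1.10 to 1.01. At an unadjusted p under 0.05 (edgeR), 2 fibroblast markers were higher and 1 was lower, against 3.14% and 2.59% of all genes tested. Their part in the values of the tenascins and of their partners was not tested.

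Of the 26 genes known to regulate tenascins, such as the TGF-beta and PDGF ligands and receptors and their transcription factors, 12 had a positive and 14 a negative log2 fold change, with a median of −0.02. Egr1, a zinc finger factor induced early by growth signals, was at 11.6, 14.4 and 11.6 CPM in controls 2, 3 and 5 and at 22.5, 17.9 and 16.8 CPM in mutants 1, 5 and 10. Its groups did not overlap and its log2 fold change was 0.61 ± 0.15 (SE, adjusted p = 0.488 in edgeR). Tgfbr2, a TGF-beta receptor, had 0.35. These were the 2 genes with an unadjusted p under 0.05, both higher, as were 3.14% of all genes tested.

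Of the 19 proteases that cut tenascins and their inhibitors, 14 were tested, 8 with a positive and 6 with a negative log2 fold change and a median of 0.13. Mmp9, a gelatinase of white blood cells and remodelling tissue, had 7, 25 and 6 counts in controls 2, 3 and 5 and 47, 41 and 39 counts in mutants 1, 5 and 10. Its log2 fold change was 1.79 ± 0.52 (SE, adjusted p = 0.636 in edgeR), the only gene of the list with an unadjusted p under 0.05. Mmp9 stood at a low level in all hearts. Of the 8 macrophage markers, 7 had a positive and 1 a negative log2 fold change. Their part in the value of Mmp9 was not tested.

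**Figure D3:**
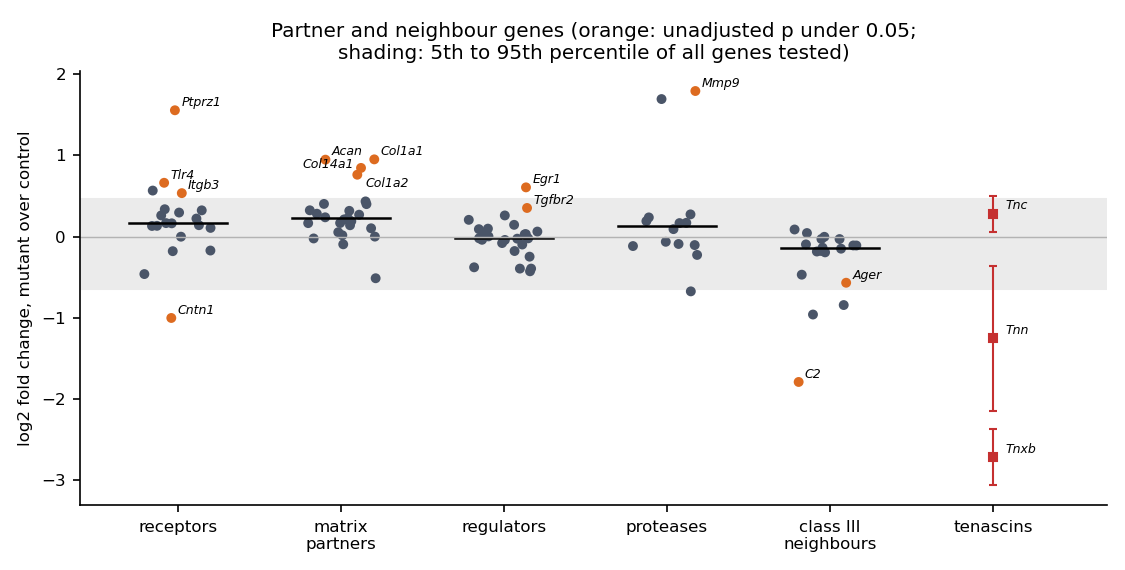
Log2 fold change (mutant over control) of the tested members of each list, with the median as a black line, unadjusted p under 0.05 in orange, and the 3 tested tenascins as red squares with SE bars. The grey band is the 5th to 95th percentile of all genes tested; Tnxb at −2.72 lies far below it, Tnc at 0.28 lies inside it, and most partners do too.

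Tnxb lies in the class III region of the major histocompatibility complex, among genes of complement, steroid synthesis and RNA processing. Of the 20 neighbours listed 18 were tested, 2 with a positive and 16 with a negative log2 fold change and a median of −0.14. Over all genes tested, 49.8% had a positive value and the median was 0.00 when rounded. At an unadjusted p under 0.05, 0 neighbours were higher and 2 were lower, against 3.14% and 2.59% of all genes tested. The 12 neighbours with at least 1000 counts over the 6 hearts had log2 fold changes between −0.57 and 0.09. The closest of these, Atf6b, ends 15.5 kb before Tnxb, and its log2 fold change was −0.14 ± 0.10 (SE). C4b, a complement gene that ends 8.57 kb after Tnxb on the opposite strand, had 145 counts in all and a value of 0.04 ± 0.89 (SE).

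The 2 lower neighbours were C2 and Ager. C2, a complement protease precursor 143 kb from Tnxb, had 28, 22 and 15 counts in controls 2, 3 and 5 and 4, 9 and 5 counts in mutants 1, 5 and 10. Its log2 fold change was −1.79 ± 0.48 (SE, adjusted p = 0.547 in edgeR) on few reads, and its groups did not overlap. Ager, a receptor for glycated proteins abundant in lung, had −0.57 ± 0.24 (SE, adjusted p = 0.865 in edgeR). Its highest value, 5.59 CPM, was in control 5, a heart with high airway epithelium markers, and that of mutant 5, which shares them, was 3.11 CPM.

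**Figure D4:**
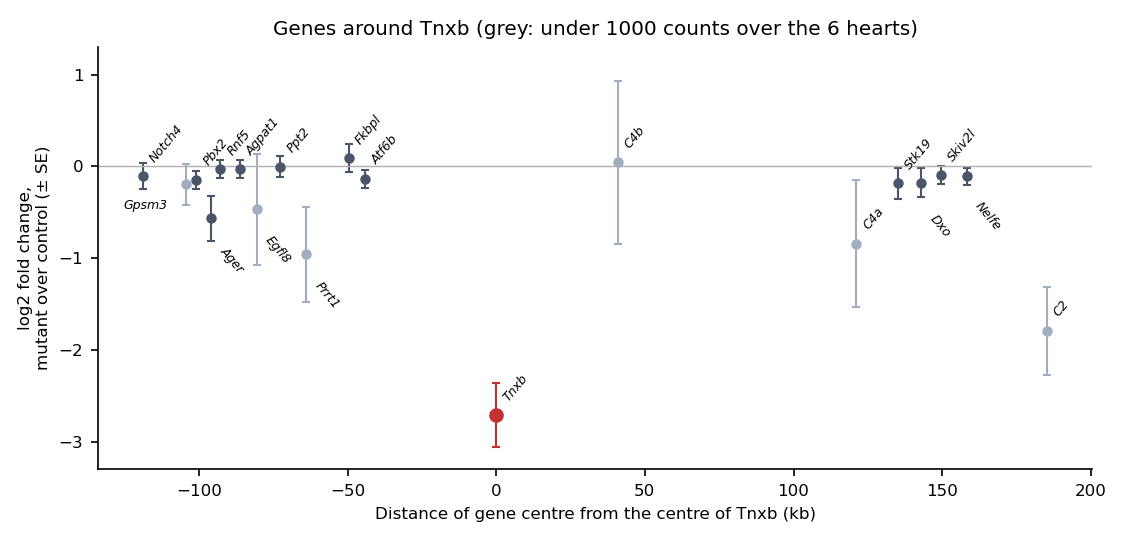
Log2 fold change (mutant over control) with its SE for Tnxb and the tested genes around it, against the distance of each gene's centre from that of Tnxb in kb. Dark points are genes with at least 1000 counts, pale points have fewer; Tnxb stands at −2.72 while the dark neighbours stay between −0.57 and 0.09 on both sides.

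The genes whose pattern over the 6 hearts was most like that of Tnxb were taken by the root mean square (RMS) distance of log2 CPM, each gene centred on its own mean. They were Hapln4, a link protein of the hyaluronan matrix (distance 0.40), Tmem132d, a transmembrane protein (0.42), Ntng2, the axon guidance protein netrin-G2 (0.49), Ptprt, a receptor tyrosine phosphatase (0.50), and Kirrel2, an adhesion protein related to nephrin (0.50). The median distance over all genes tested was 1.42, and the RMS of Tnxb about its own mean was 1.40. These genes are low. Hapln4 was at 1.40, 0.747 and 0.863 CPM in controls 2, 3 and 5 and at 0.154, 0.210 and 0.278 CPM in mutants 1, 5 and 10. It shared with Tnxb the highest value in control 2, but its highest mutant was 10 and not 5. Kirrel2 was at 1.83, 1.46 and 0.659 CPM in the same controls and at 0.115, 0.210 and 0.119 CPM in the mutants. Being chosen for their likeness to Tnxb, the 5 genes were all lower in the mutants by construction, and no test is given.

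The profile of Tnc had far closer matches, namely the phosphatase Ptpn14 (0.04), the membrane protein Tmem245 (0.04), the TGF-beta co-receptor Tgfbr3 (0.05), the actin-binding Shroom4 (0.06) and the motor protein Myo6 (0.06), against a median of 0.40 over all genes and an RMS of Tnc of 0.33. Ptpn14 was at 93.2, 74.3 and 48.1 CPM in controls 2, 3 and 5 and at 80.5, 99.5 and 78.7 CPM in mutants 1, 5 and 10. All 5 genes, like Tnc, were lowest in control 5 and highest in mutant 5, the hearts with the lowest and the highest rho with gene length. Being chosen for their likeness to Tnc, they share its pattern by construction, and no test is given. The part of gene length in this pattern was not tested.

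**Figure D5:**
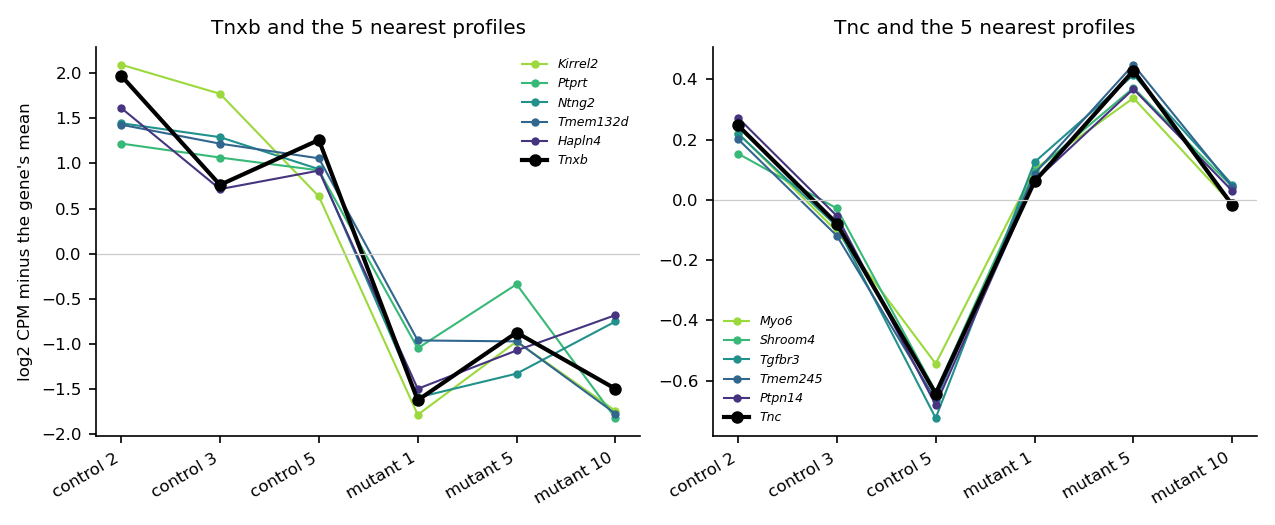
Log2 CPM minus each gene's mean over the 6 hearts, for Tnxb with its 5 nearest genes and for Tnc with its 5 nearest genes; lines join the values of 1 gene and carry no order of time. Tnxb and its nearest genes drop between the groups, whereas Tnc and its nearest genes are lowest in control 5 and highest in mutant 5.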

How the data were processed

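Libraries from 6 single E13.5 hearts were read as pairs of 150 bases. According to the study, trimmed reads were mapped by the authors to mm10 (STAR), who assigned uniquely mapped reads to the genes of GENCODE M19 with featureCounts. In contrast, the submitters' processing notes name HTSeq and DESeq2. The strand setting is not given in the sources used here. The authors deposited raw counts and FPKM values. The count of each gene was the unit tested, and the deposited FPKM values gave levels and an alternative scale.

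Counts were normalized with TMM, filtered with filterByExpr (minimum count 10, minimum total 15) and fitted with edgeR 4.0.16 (quasi-likelihood, two-sided, Benjamini-Hochberg adjusted p under 0.05) in R 4.3.3, over all genes and without covariates. The SE is the size of the log2 fold change over the square root of F. DESeq2 1.42.0 and limma 3.58.1 served as alternatives. The fits were tested on simulated data. Profiles used a prior count of 0.5. Positions and exons are from GENCODE M21 on GRCm38, and 46488 gene IDs matched. Tnxa and Tnxb transcripts were aligned with Biopython 1.88.

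Named were the 5 tenascins, up to 6 genes a list by smallest p (unadjusted p under 0.05), the 5 nearest profiles of Tnxb and of Tnc, Wt1, and markers. Members and lists were chosen with earlier results of these data known. The p-values set the difference between groups against the spread between hearts of the same group, and treat the hearts as independent. The labels do not say whether hearts share litters, so this independence could not be checked. Protein sequences were not used here. The adrenal cortex, smooth muscle, endothelium and red cell marker lists were also read. Their summed levels, in CPM over controls and over mutants, were 4.07 to 5.43 and 4.54 to 5.78 (adrenal cortex), 1571 to 1758 and 1591 to 1807 (smooth muscle), 840 to 1257 and 1104 to 1397 (endothelium), and 14584 to 32648 and 11433 to 37759 (red cell).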

Additional observations from a re-analysis of the deposited data

How the results depend on the processing

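The count of genes past an adjusted p under 0.05 was 0 with edgeR's quasi-likelihood test, 132 with DESeq2, 34 without a filter on low counts and 14 with the gene length trend removed. Leaving out 1 heart at a time gave 0 to 44 genes, with the 44 found without control 5. Of the tenascin partners 0 passed, against 1 with DESeq2 (Ptprz1), and 0 passed in each of the 6 fits of edgeR that left out 1 heart. In the marker lists, DESeq2 called 2 fibroblast, 2 macrophage, 1 epicardium and 1 nerve and glia marker, against 0.66% of all genes it tested. Wt1 changed sign without control 2 (0.13) and without mutant 1 (0.16), within a range of −0.33 to 0.16 over the hearts left out. The log2 fold change of Tnxb was −0.80 on log2(FPKM + 1) and −2.10 on log2(FPKM + 0.1), since a pseudocount shrinks the difference of a low gene, and that of Tnn was 0.44 without control 3. The other 42 of 45 values of Tnxb, Tnc and Tnn under the alternatives moved by less than the gene's pooled SD between hearts. This SD was 0.360 for Tnc and 1.44 for Tnn, larger than the size of their log2 fold changes (0.28 and −1.25). A shift that removed the whole difference of these genes would also stay within it, so this limit cannot show their stability. Of 375 values of the 25 other named genes 2 changed sign, both for Wt1, and 8 newly passed the threshold. Apart from that of Ptprz1 with DESeq2, these passes were of Hapln4, Ntng2, Ptprt and Kirrel2. Those genes were chosen for their likeness to Tnxb, so nothing is read from their passes. No paired analysis was possible because the labels give no litter or pairing of mutant and control hearts. Depth limits Tnr and Tnxa, for which no difference was detectable.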
